A study of Rattus norvegicus with 12 samples.

Results

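The 8 genes described here encode proteins that neutrophils store in their granules. They are 3 alpha defensins (Np4, RatNP-3b and Defa5), 2 proteins of the cathelicidin family (Camp and Ngp), the lectin ficolin B (Fcnb), the iron-binding protein lactoferrin (Ltf) and the siderophore-binding protein lipocalin 2 (Lcn2). They were chosen by name as neutrophil defensins and secondary granule proteins, with earlier results of these data known. All 8 were found among the 33801 genes of the deposited table, each on 1 row. The tissue was bone of wild-type (WT) rats, collected within a diameter of 4 mm around an implant at the maxillary first molar site. Polyadenylated RNA was extracted with TRIzol and sequenced in 12 libraries, 3 in each of 4 groups. The groups were loaded Nb3 alloy (Zr58Cu25Al14Nb3), non-loaded Nb3 alloy, loaded cpTi (titanium) and non-loaded cpTi, where loaded implants received cyclic load for 2 weeks and non-loaded ones stayed static. All animals carried an implant and no group without one was analysed. The labels give neither strain, age nor sex, and they do not say that the replicates of a group came from separate animals, so the p-values measure only the spread between these samples.

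Neutrophils are made in bone marrow and fill their granules in sequence as they mature. Azurophil granules, with myeloperoxidase and serine proteases and, in humans, the alpha defensins, form first at the promyelocyte stage. Specific (secondary) granules with lactoferrin, cathelicidin and lipocalin 2 follow at the myelocyte and metamyelocyte stages, under the transcription factor C/EBP epsilon. The genes are thus read mainly in marrow precursors and largely silent in the mature cells that leave for tissue. Lcn2 differs in that epithelial cells, macrophages and other cells also make it when inflammatory cytokines reach them.

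Reads on genes numbered 12.9 to 22.3 M per library. The 3 loaded Nb3-alloy libraries stood apart, with correlations of 0.731 to 0.866 to the other 9 across tested genes, against 0.932 to 0.969 among those 9. Mitochondrial reads made up 11.3% to 24.3% of the reads in them, against 4.31% to 6.86% in the other 9. The 9 osteoblast and osteocyte markers were above 1 FPKM in every library. FPKM is the number of fragments per kilobase of gene, scaled by a depth factor of each library, so it allows levels of different genes to be set beside each other. In bulk tissue, fewer cells of a type and less RNA per cell cannot be told apart.

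Of the 8 genes, 7 stood above 1 FPKM in all 12 libraries and were tested. By mean level over the 12 libraries they were among the most abundant transcripts of the tissue. Np4 ranked 24 of all genes, RatNP-3b 26, Defa5 27, Ngp 37, Camp 39, Fcnb 128 and Lcn2 142. Together the 8 genes took 0.0174% ± 0.00734 of the reads on genes in loaded Nb3 alloy and 0.806% ± 0.277 in non-loaded Nb3 alloy (SD, n = 3 each). They took 0.340% ± 0.0749 in loaded cpTi and 0.673% ± 0.141 in non-loaded cpTi.

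Ltf, a defining protein of the secondary granule, went against the name of the set. It had 11 reads in replicate 1 of loaded Nb3 alloy and 0 in replicates 2 and 3, and 0 in each non-loaded Nb3-alloy library. It had 0 reads in each loaded cpTi library, and 0, 2 and 4 in the non-loaded cpTi libraries. These 17 reads are all that the 12 libraries held, so Ltf ranked 22845 of all genes and was not tested. The transcript was thus close to absent from libraries in which Camp and Ngp, proteins of the same granule, reached 2092 and 2410 FPKM.

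The 3 alpha defensins, small cationic peptides that permeabilise microbial membranes, had the highest levels in 3 of the 4 groups. They lie next to each other on chromosome 16 of the deposited table, whose genome build is not given in the sources used here. Np4 (ENSRNOG00000069755) spans 70342529 to 70497202 on the minus strand, 154674 bases, and Defa5 (ENSRNOG00000030093, 70342530 to 70344836) lies inside that span on the same strand. RatNP-3b (ENSRNOG00000038135) follows at 70513888 to 70546522. In all, 10 rows overlap the Np4 span, 6 of them on its strand, and 2 of those, Defa5 and the unnamed row ENSRNOG00000062701, averaged above 1 FPKM. Because the genes overlap and belong to 1 family of similar sequences, their reads may have been split between them, and the level of each alone is uncertain.

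The resemblance reaches into the promoters, which are shown because these 2 genes had nearly the same level in every group. The 250 bases before the annotated start come from RefSeq on the build GRCr8, both on the minus strand, Np4 at chr16:77199643-77199892 and RatNP-3b at chr16:77248978-77249227. Over 234 aligned columns 214 bases were identical (91.45%), with a shared run of 47. Capitals mark matches to a C/EBP-type motif, TTNNGNAA, on either strand.
Np4: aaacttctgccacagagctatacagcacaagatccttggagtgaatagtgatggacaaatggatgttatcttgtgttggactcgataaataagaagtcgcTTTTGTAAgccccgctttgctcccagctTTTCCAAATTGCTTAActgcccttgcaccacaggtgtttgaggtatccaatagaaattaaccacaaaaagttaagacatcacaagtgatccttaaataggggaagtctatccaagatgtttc
RatNP-3b: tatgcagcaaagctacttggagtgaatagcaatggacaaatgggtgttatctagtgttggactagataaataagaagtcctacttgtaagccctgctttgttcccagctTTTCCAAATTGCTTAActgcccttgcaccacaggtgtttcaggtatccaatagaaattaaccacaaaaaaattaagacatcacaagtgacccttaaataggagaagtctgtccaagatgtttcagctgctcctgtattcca
RefSeq sequences were found for 7 of the 8 genes, all but Defa5. The capital stretch shared by both genes holds 2 adjoining matches, the first base of which lies 122 bases before the start in Np4 and 141 in RatNP-3b. Np4 has another match, at 150 bases before its start. At least 1 match was present in 5 of the 7 genes (Np4, RatNP-3b, Ngp, Fcnb and Lcn2), against 37.2% of 33469 promoters of the same length. An AT-rich element, TTAAATAG, was present in Np4 and RatNP-3b and in 0.777% of all promoters. The motif letters were chosen after the sequences had been seen, and a match is a description of letters, not of a bound site.

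Beside the Nb3 alloy, loading came with a near loss of the alpha defensins. Np4 had 5.72, 9.58 and 2.82 FPKM in the loaded libraries (replicates 1, 2 and 3), against 1695, 2583 and 3795 FPKM in the non-loaded ones. RatNP-3b had 8.42, 6.26 and 1.26 FPKM with load and 1852, 2545 and 3530 FPKM without. Defa5 had 6.10, 4.55 and 2.73 FPKM with load, against 1607, 2548 and 2950 FPKM without. No loaded library came near a non-loaded one for any of the 3, and the highest loaded value, 9.58 FPKM, stood far below the lowest non-loaded value, 1607 FPKM. As ratios of group means the non-loaded level was 445 times the loaded level for Np4, 497 times for RatNP-3b and 531 times for Defa5. The loaded values rested on few reads, 28 to 99 per library for Np4, 11 to 70 for RatNP-3b and 23 to 49 for Defa5.

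The 2 cathelicidin-family genes fell as well, by less. Camp (ENSRNOG00000020733, chromosome 8, 109841729 to 109843543, minus strand), the precursor of the rat antimicrobial peptide CRAMP, had 13.7, 28.2 and 2.86 FPKM with load, against 846, 1107 and 2092 FPKM without. Ngp (ENSRNOG00000024330, chromosome 8, 110394203 to 110397570, plus strand), a granule protein known from mouse myelocytes, had 26.8, 20.2 and 3.94 FPKM with load, against 1106, 1092 and 2410 FPKM without. For both genes replicate 3 was the lowest loaded library and the highest non-loaded one. The non-loaded mean was 90.5 times the loaded mean in each.

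Fcnb (ENSRNOG00000009342, chromosome 3, 11393739 to 11402151, minus strand), which binds microbial sugars and starts the lectin pathway of complement, had 11.8, 40.4 and 2.82 FPKM with load, against 359.9, 453 and 704 FPKM without. Its loaded libraries spread more widely than those of any other of the genes, over more than an order of magnitude, and still did not reach the non-loaded ones. The ratio of means was 27.6.

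Lcn2 (ENSRNOG00000013973, chromosome 3, 15680687 to 15684095, minus strand) keeps bacteria from iron by binding their siderophores. It had 170.1, 92.2 and 80.2 FPKM with load, against 387, 351 and 757 FPKM without. The groups did not overlap here either, but the gap was narrow and the ratio of means was 4.37.

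**Figure D1:**
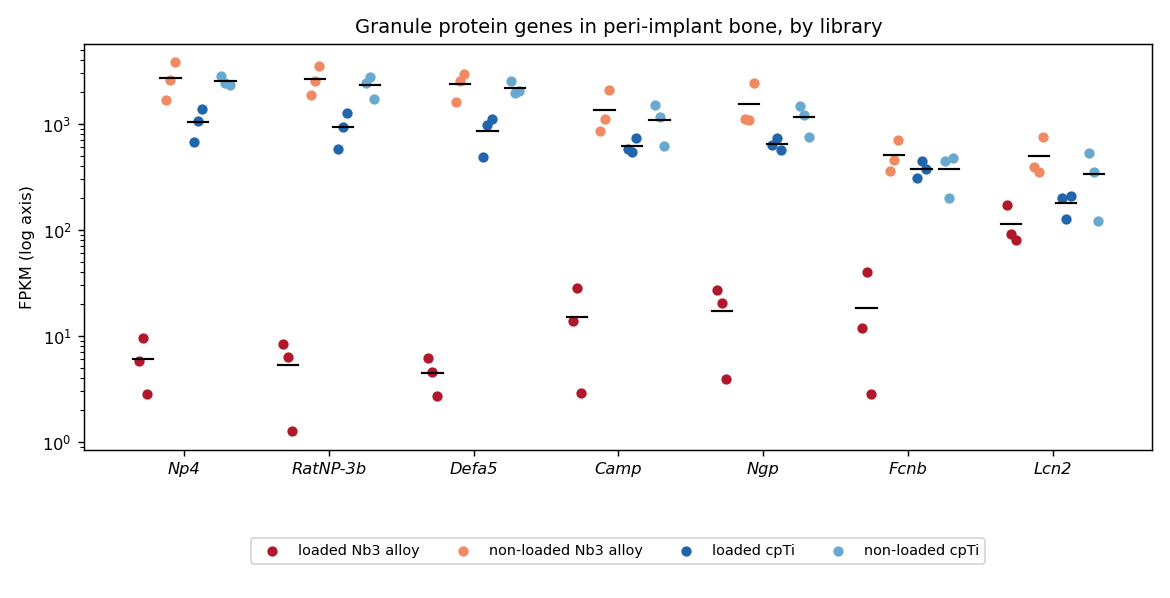
FPKM (log axis) of the 7 tested genes in each library, with loaded left of non-loaded in each material; points are libraries and lines are group means of 3. The loaded Nb3-alloy libraries lie at 1.26 to 9.58 FPKM for the alpha defensins and at 80.2 to 170.1 FPKM for Lcn2, below all libraries of non-loaded Nb3 alloy.

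All 7 tested genes fell with loading beside the Nb3 alloy at a Benjamini-Hochberg adjusted p under 0.05, in a limma fit on log2(FPKM + 1) over 15268 genes, of which 25.2% were called lower. None of the 7 overlapped between the groups, as was the case in the lower direction for 28% of all tested genes. The log2 differences were -8.89 ± 0.49 for RatNP-3b (SE; adjusted p = 4.99e-07), -8.77 ± 0.35 for Defa5 (7.17e-08) and -8.62 ± 0.40 for Np4 (1.76e-07). Camp followed at -6.73 ± 0.63 (adjusted p = 1.57e-05 in limma) and Ngp at -6.65 ± 0.57 (7.86e-06). Fcnb came to -5.27 ± 0.69 (adjusted p = 0.000143 in limma) and Lcn2 to -2.11 ± 0.51 (0.00629). Their median was -6.73, beside -0.021 over all tested genes. Without replicate 3 of loaded Nb3 alloy, the lowest library, the differences were -8.27 for RatNP-3b, -5.92 for Camp, -5.88 for Ngp and -4.41 for Fcnb. Without replicate 2, Camp came to -7.38 and Fcnb to -6.13.

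Markers of other blood cells moved in the same libraries, where 25.2% of all tested genes were called lower. Summed over 9 erythroid markers the level was 4.74 to 26.5 FPKM in loaded Nb3 alloy and 2056 to 2579 FPKM in non-loaded Nb3 alloy, with 9 of 9 called lower. The 7 B lineage markers summed to 29.8 to 67.2 FPKM with load and 283 to 528 FPKM without, with 7 of 7 lower. Rhag and Gata1 of the erythroid list and Rag1 of the B lineage list were under 1 FPKM in every loaded Nb3-alloy library. These were tested through the other groups alone and could hardly be called otherwise. The 12 macrophage markers overlapped between the groups, at 371 to 695 FPKM with load and 433 to 552 FPKM without. Of the 11 macrophage markers tested, Trem2 and Cd68 were called higher and Cd163 lower, against 20.7% and 25.2% of all tested genes. The 9 osteoblast and osteocyte markers summed to 6307 to 17725 FPKM with load and 3334 to 7686 FPKM without, with Col1a1 called higher. The part of cell make-up, or of the mitochondrial share, in the fall of the granule genes was not tested.

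Beside cpTi the alpha defensins were lower in the loaded libraries, without passing the test. Np4 had 673, 1063 and 1387 FPKM with load, against 2855, 2409 and 2340 FPKM without. RatNP-3b had 579, 937 and 1258 FPKM with load, against 2451, 2745 and 1714 FPKM without. Defa5 had 488, 971 and 1122 FPKM with load, against 2544, 1974 and 2055 FPKM without. In all 3 genes replicate 1 was the lowest loaded library, and every loaded library lay below every non-loaded one. The log2 differences were -1.34 ± 0.40 for Np4 (SE; adjusted p = 0.606 in limma), -1.36 ± 0.49 for RatNP-3b (0.666) and -1.43 ± 0.35 for Defa5 (0.588).

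The other genes differed less beside cpTi. Camp had 576, 541 and 736 FPKM with load, against 1507, 1168 and 616 FPKM without, which overlapped. Ngp had 629.7, 732 and 564 FPKM with load, against 1486, 1206 and 758 FPKM without, which did not. Fcnb had 309, 449.6 and 372 FPKM with load, against 443, 198 and 471 FPKM without, and the loaded libraries lay inside the range of the non-loaded ones. Lcn2 had 199, 125 and 209 FPKM with load, against 532, 353 and 122 FPKM without, and 1 non-loaded library was below all loaded ones. Log2 differences were -0.75 ± 0.63 for Camp, -0.79 ± 0.57 for Ngp, 0.11 ± 0.69 for Fcnb and -0.71 ± 0.51 for Lcn2 (SE), at adjusted p between 0.812 and 0.981 in limma.

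None of the 7 genes was called beside cpTi by limma, where 0.00655% of all tested genes were called. At an unadjusted p under 0.05, 3 of the 7 genes passed, the alpha defensins, against 6.96% of all genes, and limma-voom on whole reads called 0 of the 7. In 4 of the 7 genes, the alpha defensins and Ngp, the loaded libraries lay below all non-loaded ones, as they did in 9.4% of all tested genes. The median was -0.79, beside -0.027 over all genes. The 9 erythroid markers summed to 1396 to 2808 FPKM with load and 2126 to 2953 FPKM without, and the 7 B lineage markers to 175 to 350.0 FPKM with load and 415 to 462 FPKM without. The 9 osteoblast and osteocyte markers summed to 9407 to 11407 FPKM with load and 3445 to 5289 FPKM without, and none of these markers was called. Their part in the defensin values was not tested.

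The change with loading was larger beside the Nb3 alloy than beside cpTi in 6 of the 7 genes, by the interaction term of the limma fit, against 11.8% of all tested genes with a lower call in that term. The difference between the loading effects, Nb3 alloy minus cpTi, was -7.54 ± 0.70 on the log2 scale for RatNP-3b (SE; adjusted p = 8.34e-05), -7.34 ± 0.50 for Defa5 (1.38e-05) and -7.28 ± 0.57 for Np4 (3.25e-05). Camp came to -5.98 ± 0.89 (adjusted p = 0.00132 in limma), Ngp to -5.85 ± 0.80 (0.000787) and Fcnb to -5.38 ± 0.97 (0.00386). For Lcn2 the difference, -1.40 ± 0.73, did not pass the test (adjusted p = 0.202 in limma). Without replicate 3 of loaded Nb3 alloy the term was -6.91 for RatNP-3b, -5.17 for Camp, -5.09 for Ngp and -4.51 for Fcnb, and without replicate 2 it was -6.63 for Camp and -6.23 for Fcnb.

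Under loading, the Nb3 alloy was set against cpTi with the same loaded Nb3-alloy libraries, so the result is not independent of the one above. Of the 7 genes, 6 were called lower beside the Nb3 alloy, against 18.9% of all genes, and the same 6 did not overlap between the groups, against 25.5% of all genes in that direction. The log2 differences were -7.36 ± 0.49 for RatNP-3b (SE; adjusted p = 2.29e-06 in limma), -7.27 ± 0.40 for Np4 (7.81e-07), -7.26 ± 0.35 for Defa5 (3.80e-07), -5.70 ± 0.63 for Camp (7.96e-05), -5.48 ± 0.57 for Ngp (4.91e-05) and -4.89 ± 0.69 for Fcnb (0.00042). Without replicate 3 of loaded Nb3 alloy, RatNP-3b came to -6.74, Camp to -4.89, Ngp to -4.72 and Fcnb to -4.02, and without replicate 2 Camp came to -6.35 and Fcnb to -5.74. Lcn2 averaged 114 ± 48.8 FPKM in loaded Nb3 alloy and 178 ± 45.9 FPKM in loaded cpTi (SD, n = 3 each), with overlapping libraries and a log2 difference of -0.68 ± 0.51 (SE; adjusted p = 0.338 in limma).

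Without loading, none of the differences between the materials passed the test. Np4 averaged 2691 ± 1054 FPKM beside the Nb3 alloy and 2535 ± 279.9 FPKM beside cpTi (SD, n = 3 each), while Camp averaged 1348 ± 657 FPKM beside the Nb3 alloy and 1097 ± 449.7 FPKM beside cpTi. All 7 genes overlapped between the groups, and their log2 differences ran between 0.015 ± 0.40 for Np4 and 0.72 ± 0.51 for Lcn2 (SE). The Lcn2 values rest in part on replicate 3 of non-loaded cpTi, the lowest of its group at 122 FPKM. Without it Lcn2 came to 0.11 here, to -1.32 for loading beside cpTi and to -0.79 in the interaction, and none of these passed the test. None of the 7 was called by limma or by limma-voom on whole reads, where limma called 0% of all genes, and 0 of the 7 passed an unadjusted p under 0.05, which 3.08% of all genes did. Replicate 3 of non-loaded Nb3 alloy was the highest of its group in all 7 genes. Without it the differences of Defa5, Np4, RatNP-3b, Camp and Ngp turned below 0, to between -0.27 and -0.011.

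**Figure D2:**
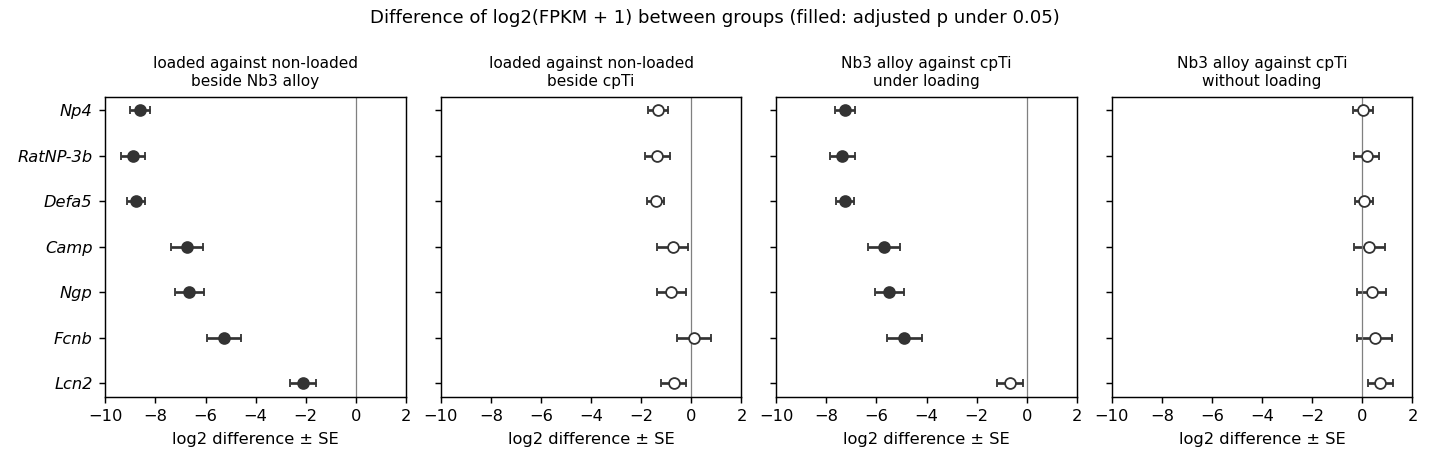
Log2 difference of each gene on log2(FPKM + 1), with its standard error, in the 4 comparisons between groups; filled points have an adjusted p under 0.05. Beside the Nb3 alloy all 7 genes lie between -8.89 and -2.11, while without loading all 7 lie between 0.015 and 0.72.

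The order of the genes was alike in 3 groups and different in the loaded Nb3 alloy. In the other groups Np4, RatNP-3b and Defa5 led, followed by Ngp, Camp, Fcnb and Lcn2. Neighbours within the defensins and within the pair Ngp and Camp overlapped in each of these 3 groups, and Camp and Fcnb did not overlap in any of them. In loaded Nb3 alloy Lcn2 came first at 114 ± 48.8 FPKM, above all libraries of the next gene, Fcnb at 18.3 ± 19.6 FPKM. Ngp followed at 17.0 ± 11.8 FPKM, Camp at 14.9 ± 12.7 FPKM, Np4 at 6.04 ± 3.39 FPKM, RatNP-3b at 5.31 ± 3.67 FPKM and Defa5 at 4.46 ± 1.69 FPKM (SD, n = 3), each overlapping its neighbour.

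Ratios within a library, which do not depend on its depth, showed the same. Lcn2 stood at 3.27 to 28.1 times the level of Camp in loaded Nb3 alloy, with a geometric mean of 10.5, against 0.317 to 0.458 times in non-loaded Nb3 alloy, with a mean of 0.375. Against Np4 it stood at 20.1 times in loaded Nb3 alloy and 0.184 times in non-loaded Nb3 alloy as geometric means. The ratio of Fcnb to Camp was 1.07 with load and 0.389 without, and that of Np4 to Camp 0.521 with load and 2.04 without. None of these 4 ratios overlapped between loaded and non-loaded Nb3 alloy. The ratios of the defensins to each other and of Camp to Ngp overlapped in every comparison, with geometric means of 0.802 to 1.33. For the ratios that did not overlap, the two-sided exact permutation p was 0.1, the smallest that 3 against 3 libraries allow, and 0.333 after adjustment over 40 ratio tests, so this design cannot call them.

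**Figure D3:**
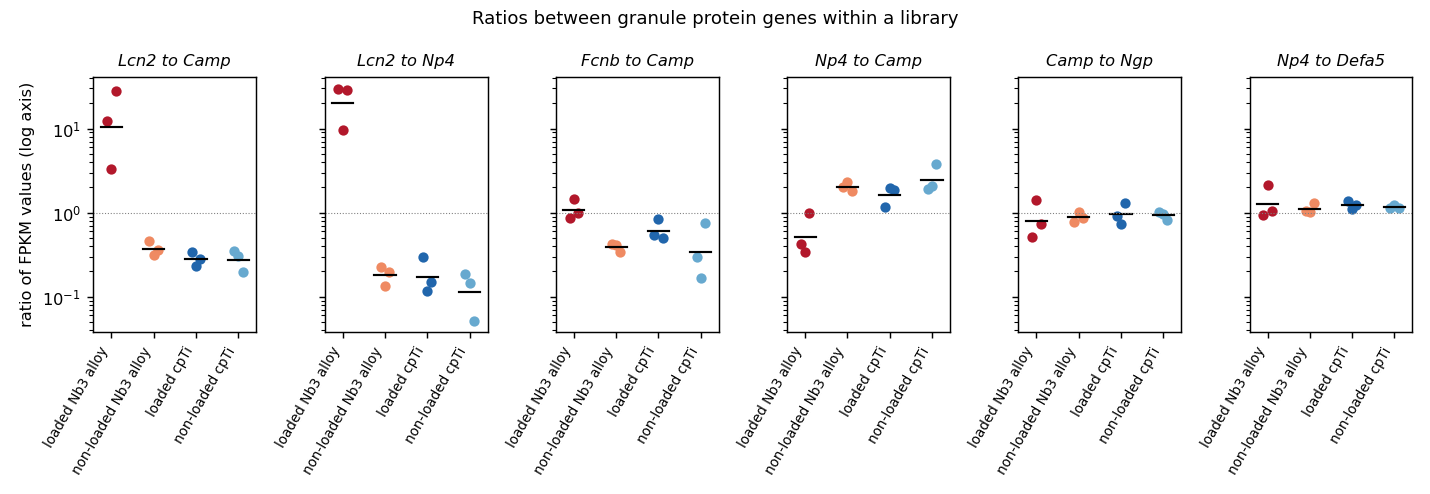
Ratio of FPKM of 2 genes within each library (log axis) for 6 pairs, in the 4 groups; points are libraries, lines are geometric means of 3, and the dotted line marks equal levels. Lcn2 exceeds Camp and Np4 in every loaded Nb3-alloy library and in no other library.

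Among the 9 libraries outside loaded Nb3 alloy, the defensins varied together, with Pearson's r of 0.965 to 0.986 on log2(FPKM + 1). Camp and Ngp had an r of 0.929 and Camp and Lcn2 of 0.938. Fcnb went its own way, with r between 0.196 and 0.384 to the others. These are descriptions over 9 libraries of 3 groups, which share the material and loading of their group, and the defensins may share reads.

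The genes outside the set that varied most like its members differed between them. Over all 12 libraries Ms4a3, a membrane protein of granulocyte precursors, was closest to Defa5 (r = 0.999) and Np4 (0.997), and B4galnt1 to RatNP-3b (0.994). S100a8, a calcium-binding protein of neutrophil cytosol, was closest to Camp (0.996), Pglyrp1, a peptidoglycan receptor of specific granules, to Ngp (0.996), and Itgb7 to Fcnb (0.984). For Lcn2 it was Rhof, with an r of 0.956. These values rest largely on the low loaded Nb3-alloy libraries. Over the other 9 libraries the closest were Defa11 to Defa5 (0.988), Neu1 to Np4 (0.987) and RatNP-3b (0.981), Flot1 to Camp (0.970), Ncf4 to Ngp (0.982), Tmem30a to Fcnb (0.969) and Rhof, again, to Lcn2 (0.985).

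The other genes of the granule programme were described by granule class, for loading beside the Nb3 alloy. Of 11 azurophil granule genes tested, 8 fell and 2 rose with loading, against 25.2% and 20.7% of all tested genes. The list median of the log2 difference was -3.60. Mpo, which makes hypochlorous acid, averaged 0.328 ± 0.169 FPKM with load and 738 ± 329 FPKM without, a difference of -9.04 ± 0.27 (SE; adjusted p = 1.53e-08 in limma). Elane, the neutrophil elastase, had a log2 difference of -8.03, Ms4a3 of -6.18 and the protease Prtn3 of -5.95, all past the test. Mpo, Elane, Ms4a3, Prtn3 and Prss57, 5 of the 8 that fell, were under 1 FPKM in every loaded Nb3-alloy library. They were tested through the other groups alone and could hardly be called otherwise, so their values are a description. The 2 that rose, Cd63 by 1.21 and Ctsc by 1.2, are a membrane protein and a protease of lysosomes, found in many cell types.

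Of 19 other genes of specific and gelatinase granules, 12 fell and 0 rose, against 25.2% and 20.7% of all tested genes. The list median was -1.45. Cd177, a neutrophil surface protein, averaged 2.08 ± 0.898 FPKM with load and 133 ± 67.9 FPKM without (log2 difference -5.36). The acute-phase protein Orm1 (-3.71), Pglyrp1 (-4.38) and the adhesion molecule Ceacam1 (-3.14) were also among those that fell. The gelatinase Mmp9 (0.072), haptoglobin Hp (-0.25) and the oxidase subunit Cyba (0.017) did not pass the test. Of 13 mature neutrophil genes, 10 fell and 0 rose, against 25.2% and 20.7% of all tested genes, with a list median of -1.72. Among those that fell were the formyl peptide receptor Fpr1 (-3.89), S100a8 (-5.66) and S100a9 (-5.63). The 2 with a difference above 0, neither of them called, were G0s2 and Fcgr3a. G0s2 averaged 32.2 ± 28.2 FPKM with load and 7.24 ± 1.16 FPKM without (SD, n = 3 each). Fcgr3a averaged 17.2 ± 11.1 FPKM with load and 8.12 ± 2.37 FPKM without.

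Of the other defensin genes, 11 were in the table and 3 reached the level for testing, all through groups other than loaded Nb3 alloy. They were called lower, but a gene tested only through groups where it is high could hardly be called otherwise. Their values are therefore given as a description. Defa11 had 0.154 ± 0.266 FPKM with load, on 4 reads in all, and 82.2 ± 23.1 FPKM without, on 1826 reads. Defa10 and Defa7 had 0 reads in the 3 loaded libraries, against 48 and 17 reads in the 3 non-loaded ones.

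Of 8 transcription factors of the granulocyte line, 5 fell and 2 rose, against 25.2% and 20.7% of all tested genes. Cebpe, the factor of secondary granule genes, averaged 0.643 ± 0.522 FPKM with load and 47.0 ± 14.1 FPKM without (log2 difference -4.88 ± 0.29; adjusted p = 6.25e-07 in limma). Myb, active in precursors (-4.14), Gfi1, needed for granulocyte maturation (-1.96), Klf5 (-1.55) and Runx1 (-1.17) fell too. Cebpb (1.6) and Cebpd (1.62), factors of acute-phase and cytokine responses that are used in many cell types, rose. Like the 5 azurophil genes named above, Orm1, Fpr1 and Myb were under 1 FPKM in every loaded Nb3-alloy library. They too were tested through the other groups alone, and their values are a description. Beside cpTi limma and limma-voom called 0 of the 54 tested genes of these 5 lists, where limma called 0.00655% of all tested genes. In limma 8 of the 54 had an unadjusted p under 0.05, as did 6.96% of all tested genes.

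The promoter of Lcn2 is shown because Lcn2 had the highest level with loading beside the Nb3 alloy. The 250 bases before its start lie at chr3:36081781-36082030 on the minus strand (RefSeq, GRCr8), and capitals mark matches to an NF-kappaB-type motif (GGGA and TCC with any 3 letters between) and to the C/EBP-type motif. Fcnb, from chr3:31800189-31800438 on the minus strand, the next gene in that order, is given beside it with its C/EBP-type matches in capitals.
Lcn2: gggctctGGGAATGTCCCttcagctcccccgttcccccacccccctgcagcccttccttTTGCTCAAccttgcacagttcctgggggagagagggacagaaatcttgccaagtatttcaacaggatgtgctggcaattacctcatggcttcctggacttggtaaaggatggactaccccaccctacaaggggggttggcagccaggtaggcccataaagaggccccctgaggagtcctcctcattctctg
Fcnb: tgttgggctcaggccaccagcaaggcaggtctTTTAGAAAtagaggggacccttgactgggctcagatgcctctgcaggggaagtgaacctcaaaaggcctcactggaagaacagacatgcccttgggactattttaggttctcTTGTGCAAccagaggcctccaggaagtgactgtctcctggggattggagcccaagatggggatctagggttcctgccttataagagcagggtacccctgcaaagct
The NF-kappaB-type letters begin 243 bases before the start of Lcn2, where matches on the 2 strands overlap. They occurred in 1 of the 7 promoters and in 3.38% of all 33469, with both strands searched. The C/EBP-type match of Lcn2 lies 191 bases before the start. The PU.1-type letters GAGGAAG and the TATA box TATAAA occurred in 0 of the 7 promoters, against 10.2% and 12.9% of all promoters.

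Of the genes known to induce Lcn2, or to be induced with it, most of those tested rose beside the Nb3 alloy, in the direction opposite to Lcn2. Of 8 that reached 1 FPKM in at least 3 of the 9 libraries outside loaded Nb3 alloy, 7 rose and 1 fell with loading, with a median log2 difference of 2.14, while 20.7% of all tested genes were called higher. Csf3, Cxcl6 and Tnf were tested only through the loaded Nb3-alloy libraries, where they were high, and are not counted here. Slpi, a protease inhibitor of epithelia and neutrophils, averaged 8354 ± 2446 FPKM with load and 41.3 ± 10.2 FPKM without (log2 difference 7.61 ± 0.94; adjusted p = 0.000108 in limma). Socs3, a feedback inhibitor of cytokine signalling, rose by 3.0, the cytokine Il1b by 2.83, the chemokine Cxcl1 by 2.31 and Nfkbiz, a co-activator of NF-kappaB targets, by 1.97. Csf3, the granulocyte growth factor, had 2.53, 1.43 and 1.62 FPKM with load and 0 in all 3 non-loaded libraries, values given as a description. Il17ra, the receptor of interleukin 17, fell by 2.19. Of 15 oral epithelium markers, 5 were tested, of which Cdh1 and Dsg3 fell, against 25.2% of all tested genes. The 15 markers summed to 132 FPKM in replicate 2 of loaded Nb3 alloy, to 8.53 and 14.1 FPKM in the other loaded libraries, and to between 18.6 and 27.3 FPKM without load. That library alone held Krt5 at 51.1 FPKM, Odam at 18.9, Krt15 at 14.1, Krt13 at 12.6, Krt6a at 7.76, Perp at 6.93 and Krt17 at 4.54 FPKM, while the other loaded and the non-loaded Nb3-alloy libraries stayed under 1 FPKM for each of these genes. The Lcn2 level of replicate 2 of loaded Nb3 alloy, 92.2 FPKM, lay between those of the other loaded Nb3-alloy libraries. The part of other cell types in the Lcn2 level was not tested.

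Of the receptors and partners of the proteins, 6 reached 1 FPKM in at least 3 libraries outside loaded Nb3 alloy. Of these 3 rose and 2 fell beside the Nb3 alloy, against 20.7% and 25.2% of all tested genes. Slc22a17, a receptor for lipocalin 2, averaged 23.5 ± 7.02 FPKM with load and 10.6 ± 2.93 FPKM without (log2 difference 1.07 ± 0.30; adjusted p = 0.0127 in limma). Lrp1, which takes up lactoferrin, rose by 0.99 and P2rx7, an ATP receptor that human cathelicidin acts on, by 1.03. The ficolin-associated protease Masp1, tested only through the loaded Nb3-alloy libraries, had 1.68, 9.33 and 1.04 FPKM there and at most 0.694 FPKM in the other 9. Fcna, the other rodent ficolin, had a log2 difference of -3.52 and Ncl of -0.40, both past the test.

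**Figure D4:**
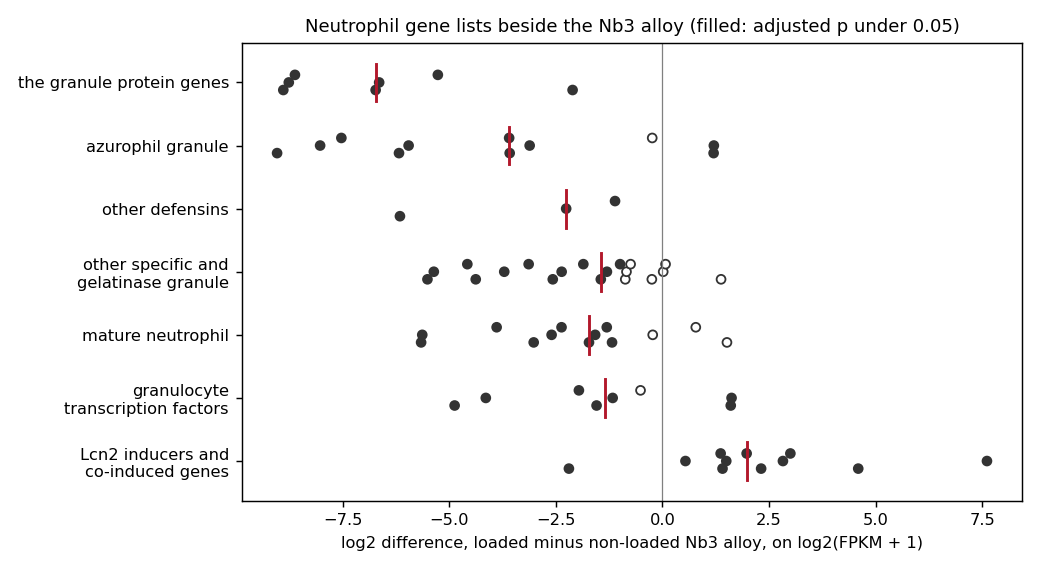
Log2 difference, loaded minus non-loaded Nb3 alloy, of each tested gene of 7 gene lists on log2(FPKM + 1). Points are genes, filled where the adjusted p was under 0.05, and red lines are list medians. The inducers of Lcn2 and genes induced with it were not chosen as neutrophil genes. Granule lists have medians of -6.73, -3.60, -2.26 and -1.45, and the list of Lcn2 inducers has a median of 1.97 over its 11 tested genes, 3 of which were tested only through the loaded libraries. The other defensins, with the median of -2.26, were tested only through groups other than loaded Nb3 alloy.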

How the data were processed

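The deposited values are FPKM for 33801 genes in 1 table, which also gives lengths and positions. Per the submitters' processing notes, the tools were HISAT2 2.0.5, featureCounts 1.5.0-p3, fastp, CASAVA 1.8 and DESeq2 1.20.0; their roles, the build, the annotation and strandedness are not stated there. FPKM times gene length gave whole reads in 100% of values within 0.01 read, and these are the read numbers printed.

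The main test was limma 3.58.1 (R 4.3.3, statmod 1.5.0) on log2(FPKM + 1), trended and robust, with all 12 libraries, a mean per group and 8 residual degrees of freedom. This scale understates changes at low levels. Tested genes (15268) had at least 1 FPKM in at least 3 libraries, and calls used a Benjamini-Hochberg adjusted p under 0.05 over them. A count test was foreseen for counts, which the table does not hold. The procedure was tested on simulated data.

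Members and lists were chosen with earlier results of these data known. Named are all 8 genes, up to 4 called genes of each list by smallest p, and the genes most correlated with each member. Runx1, Ctsc, Cd63, Cebpb, Cebpd, Mmp9, Hp, Cyba, G0s2, Fcgr3a, Il1b and Cxcl1 were named after their values were seen. So were Nfkbiz, P2rx7, Ncl, Prss57, Cxcl6, Tnf, Gata1, Odam, Perp, Epcam, Amtn, Krt4 and 5 other keratin genes. The listed genes Cybb, RatNP-3a, Cebpa, Ltb4r, Krt14, Krt19 and Alas2 were not analysed here. A gene that the naming rule picks is not reported here. Alternatives were scaling by total reads, quantile normalization, a pseudocount of 0.1, no filter, 1 FPKM in 6 libraries, limma-voom on whole reads, a replicate block, only the groups compared, and each library left out. Descriptions, promoter alignments and figures used scipy 1.17.1, pandas 2.3.3, numpy 2.4.6, statsmodels 0.14.6 and matplotlib 3.10.9 under Python 3.11.15.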

Additional observations from a re-analysis of the deposited data

Results flagged for a closer look

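The effect of loading differed between the materials for 6 genes by the interaction term of the limma fit. The loading effect beside the Nb3 alloy minus that beside cpTi was -7.34 for Defa5, -7.28 for Np4, -7.54 for RatNP-3b, -5.98 for Camp, -5.85 for Ngp and -5.38 for Fcnb on the log2 scale, at adjusted p between 1.38e-05 and 0.00386. All 3 loaded Nb3-alloy libraries lay below all 9 others in these 6 genes. The same 3 libraries also had the highest mitochondrial shares and the lowest sums of erythroid markers, and the part of these in the result was not tested.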

How the results depend on the processing

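The number of the 7 genes called was unchanged under every alternative and with each library left out, at 7, 0, 6, 0 and 6 in the 2 loading effects, the 2 material effects (under and without loading) and the interaction. Scaling by total reads moved the median of all genes from -0.021 to -0.17 for loading beside the Nb3 alloy. It reversed no gene.

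Reversals were all in differences that had not been called. Fcnb beside cpTi ran between -0.29 and 0.33 with a library left out. For the materials without loading, leaving out a library gave -0.11 to 0.33 for Defa5, -0.27 to 0.31 for Np4, -0.057 to 0.41 for RatNP-3b, -0.086 to 0.57 for Camp and -0.011 to 0.58 for Ngp. Np4 also reversed under quantile normalization, at -0.035. The cause was not tested.

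Over all genes, loading beside cpTi called 1 gene. It called 3 under quantile normalization, 2 with no filter or with 1 FPKM in 6 libraries, 0 with the pseudocount 0.1, limma-voom or only the groups compared, and 0 to 4 with a library left out. The materials without loading called 0, against 1 with no filter and up to 4 with a library left out (non-loaded cpTi replicate 1). The interaction called 3089, against 1986 without loaded cpTi replicate 1 and 2018 without non-loaded Nb3 replicate 3.

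Same-numbered libraries did not deviate together (r between -0.252 and 0.115, over 0.1 in 1 of 12 pairs). Differently numbered libraries ran between -0.207 and 0.274. With 3 libraries per group this cannot decide whether same-numbered libraries share an animal or a batch, and the labels do not say. With a replicate block, 7, 0, 6, 0 and 6 of the genes were called, and 6568, 0, 4591, 0 and 2608 of all genes, against 6996, 1, 5123, 0 and 3089 without it. Loaded Nb3-alloy defensin values rest on 11 to 99 reads per library, so their ratios to each other there are imprecise.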
